A study of Mus musculus with 4 samples.

Results

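A set of 71 genes was lower in B16-OVA mouse melanoma cells after transfection with double-stranded DNA than after mock transfection (differences of -0.90 to -0.50 on a log2 scale). Grouped by known function once the genes were known, 23 of them (32.4%) act in the cell cycle, and the share of such genes among all expressed genes was not measured. The series holds 4 Affymetrix arrays: 2 of mock transfected cells and 2 of cells labelled as transfected with AT90ES. The treatment text names a DNA duplex of 90 bases, given with the lipid carrier Lipofectamine 2000 for 6 hours, and does not use the name AT90ES. All 4 arrays come from 1 cultured line, a B16 melanoma derivative grown in serum-containing medium, and the treatment text, which is the same for all arrays, does not say what the mock cells received. The labels do not state whether the replicates of a group were grown apart, so their spread may be technical.

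The genes were chosen from this comparison itself. Each of the 22180 genes with a probe of its own was represented by its brightest probe, and its values are deposited log2 levels, on which a step of 1 is a doubling of signal. A gene was taken when its mean mock level was at least 6, when its AT90ES mean minus its mock mean was -0.5 or less, and when both AT90ES arrays lay below both mock arrays. Of the 22180 genes, 8689 reached the level of 6, and 77 of these met all value conditions (0.886% of 8689). The set leaves out 4 of these, namely Cdca7, Cdc6, Exo1 and Mef2c, and 2 gene models without an approved name, which leaves 71 genes. Birc3, Mitf and Dusp6 are also left out by name but did not meet the value conditions. Since the differences chose the genes, they are given here as descriptions and carry no test. As a gauge of the floor, 7 of the 1105 olfactory receptor genes on the array reached a mock mean of 6.

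In the limma test across all 22180 genes (Benjamini-Hochberg adjusted p under 0.05), 0 genes were lower in AT90ES cells and 92 were higher (0.415%), so none of the 71 passed. At an unadjusted p under 0.05 limma gave 1017 lower genes (4.59%). The count of lower genes was 54 when genes with a mock mean under 6 were left out and 162 with an intensity trend in the spread. Over the 8689 expressed genes, 49.4% had a negative difference, 24.2% had both AT90ES arrays below both mock arrays and 25.6% had both above them. The labelled cell type carried its markers: 8 of 10 pigment cell markers reached a level of 6 in mock cells, among them Dct at 12.91 and Pmel at 12.28, whereas Oca2 at 4.27 and Ednrb at 5.13 did not.

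Cells that divide make the RNA of their replication and mitosis genes in waves. E2F factors drive the first wave as cells enter S phase. A second wave in G2 and mitosis is controlled through a promoter element called the CHR, and when cells stop dividing the DREAM complex holds genes of both waves silent. A melanoma line in culture divides steadily, so such genes are normally well expressed in it.

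**Figure D1:**
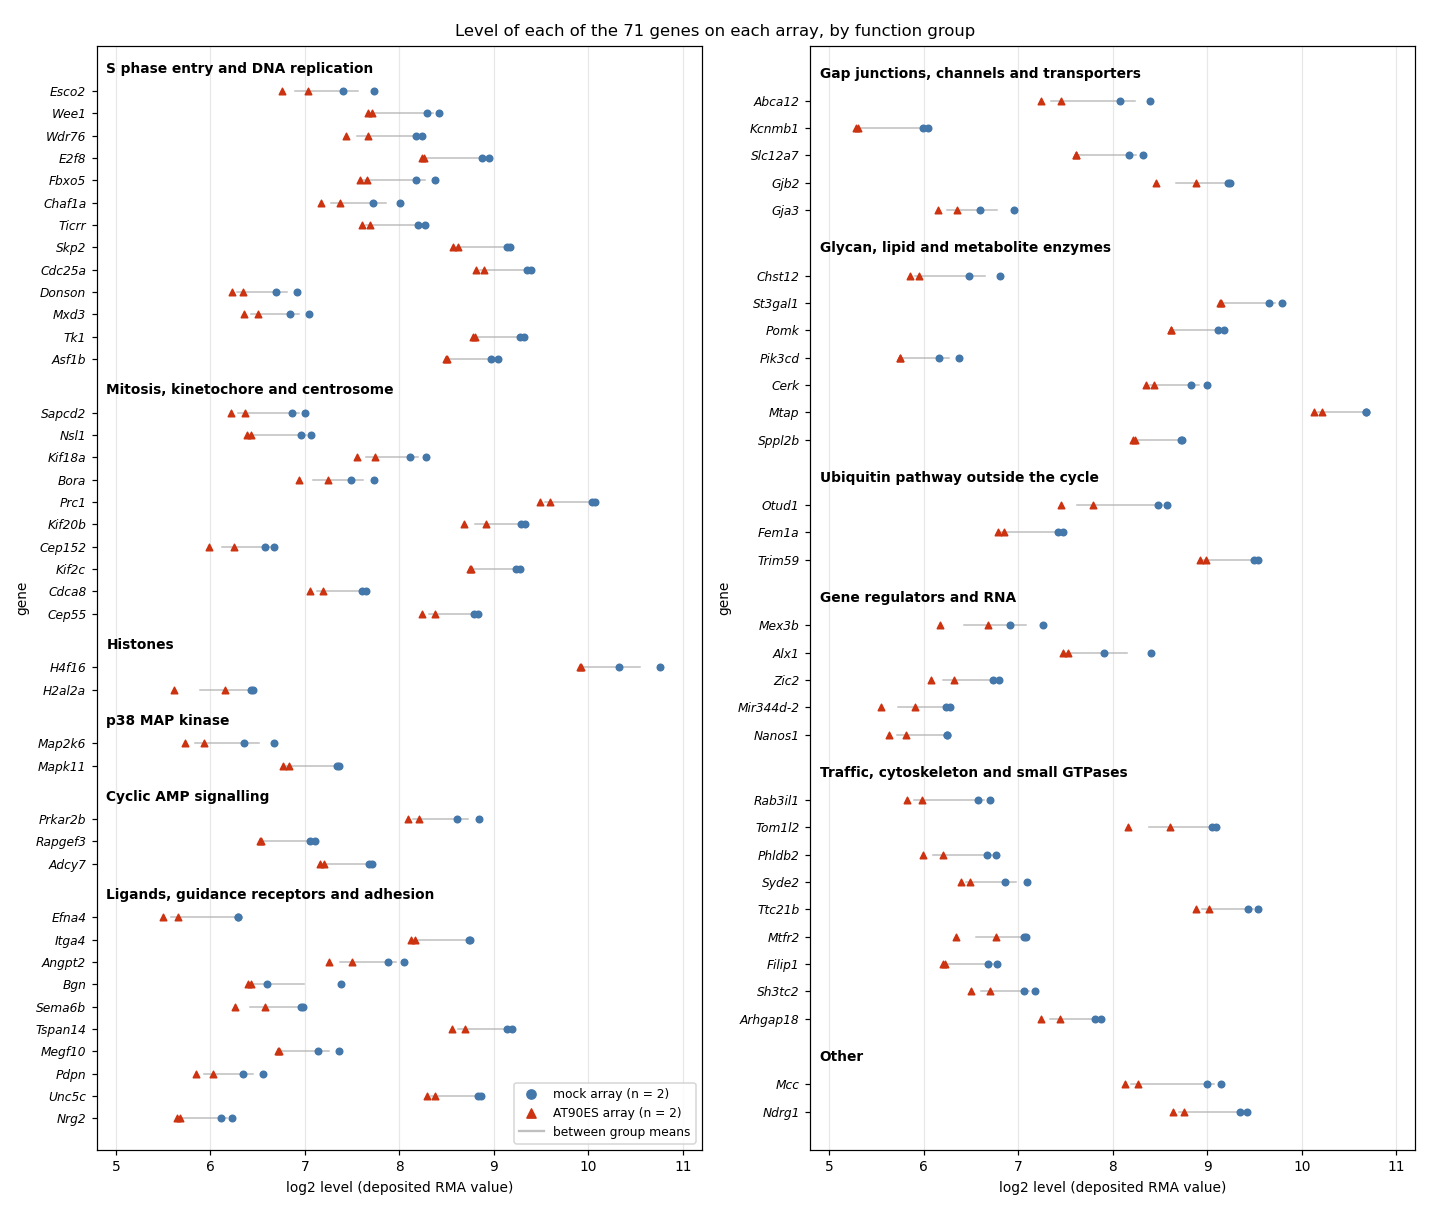
Log2 level (horizontal axis) of each of the 71 genes (vertical axis), with mock arrays as blue circles and AT90ES arrays as red triangles (n = 2 each) and a grey line between the group means. By construction no red triangle lies right of a blue circle, and the narrowest gap is that of Bgn at 0.17.

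The 71 differences ran from -0.90 to -0.50 with a median of -0.55, that is from 1.87-fold to 1.41-fold lower with a median of 1.47-fold. None was 2-fold lower, 24 lay at -0.6 or below and 7 at -0.7 or below, and 47 lay between -0.6 and the threshold. Mock levels ran from 6.02 to 10.68 with a median of 7.86, close to the 7.71 of all 8689 expressed genes. The set therefore spans dim and bright genes alike, with 22 genes under a mock mean of 7 and 18 at 9 or above. The median standard deviation between arrays was 0.06 in mock and 0.09 in AT90ES cells (n = 2 each), against 0.07 and 0.08 for all expressed genes. Of the 71 genes, 51 were lower on AT90ES replicate 2 than on replicate 1, a lean shared by 66.8% of expressed genes.

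**Figure D2:**
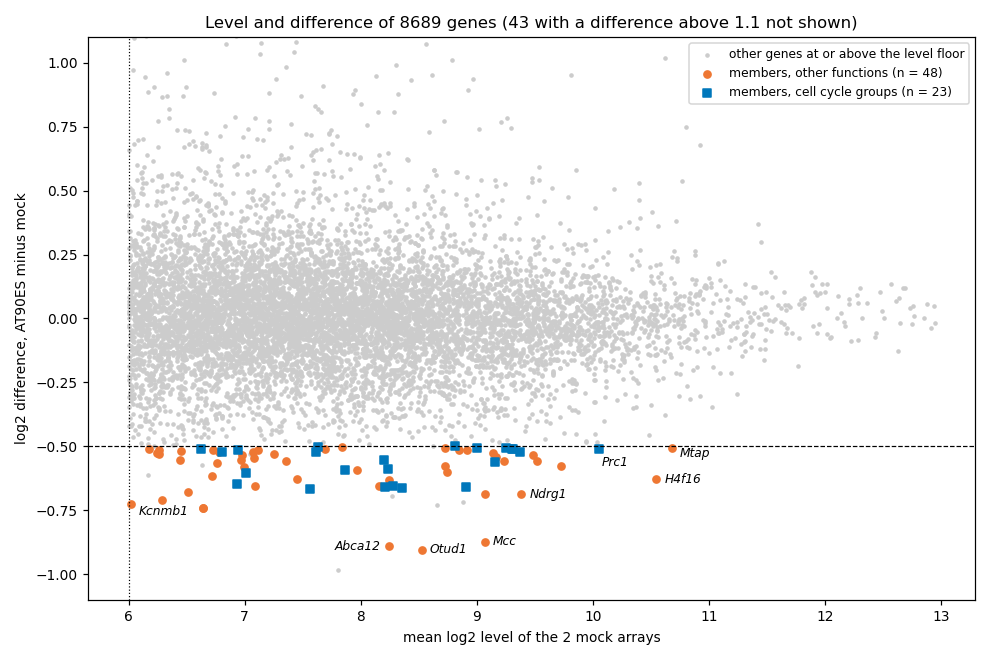
Log2 difference between the group means (vertical axis) against the mean log2 level of the 2 mock arrays (horizontal axis) for 8689 expressed genes in grey, with the 23 cell cycle genes as blue squares and the other 48 genes as orange circles. The dashed line marks the size threshold of -0.5, just under which most of the 71 genes lie, and 43 genes with a difference above 1.1 are off the scale.

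Among the 71 genes, the 3 largest differences belonged to genes outside the cell cycle. This ranking covers the set alone, since genes left out by name were not assigned to a function group. Cdca7, left out by name, was lower still at -0.99. The other left-out names that met the value conditions, Exo1, Mef2c and Cdc6, were at -0.73, -0.72 and -0.69. Otud1, a deubiquitinase, stood at 8.47 and 8.58 in mock and at 7.79 and 7.45 in AT90ES cells. Abca12, a lipid transporter best known from skin, stood at 8.08 and 8.40 in mock and 7.46 and 7.24 in AT90ES cells. Mcc, named for mutation in colorectal cancer, stood at 8.99 and 9.14 in mock and 8.26 and 8.13 in AT90ES cells. Their group means differed by -0.90, -0.89 and -0.87, and in each the groups were further apart than the arrays within a group. The next gene, Rab3il1, was at -0.74.

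The S phase entry and DNA replication group held 13 genes, and their differences ran from -0.67 to -0.51. RNA was taken from whole cultures, so fewer cells in a phase of the cycle and less RNA per cell cannot be told apart. Esco2, which acetylates cohesin during S phase, stood at 7.40 and 7.73 in mock and 7.03 and 6.76 in AT90ES cells (-0.67). Wee1, the kinase that restrains the cyclin-dependent kinases, stood at 8.29 and 8.42 in mock and 7.67 and 7.71 in AT90ES cells (-0.66). Wdr76, a WD repeat protein linked to cullin ligases, stood at 8.24 and 8.18 in mock and 7.66 and 7.44 in AT90ES cells. By construction the groups do not overlap in any member. For these 3 genes the gap between the closest arrays of the groups was 0.37 in Esco2, 0.52 in Wdr76 and 0.58 in Wee1.

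E2f8, a repressor of the E2F family, stood at 8.87 and 8.94 in mock and 8.24 and 8.26 in AT90ES cells (-0.66). Fbxo5, which encodes the inhibitor of the anaphase-promoting complex known as Emi1, stood at 8.17 and 8.38 in mock and 7.65 and 7.58 in AT90ES cells (-0.66). The entry regulators Cdc25a and Skp2 were at -0.52 and -0.56. Cdc25a encodes the phosphatase that activates cyclin-dependent kinases, and Skp2 the ligase subunit that removes the inhibitor p27. Cdc25a had a mock mean of 9.37 ± 0.03 and an AT90ES mean of 8.85 ± 0.06 (SD, n = 2), and Skp2 had 9.16 ± 0.02 and 8.59 ± 0.04. Genes that promote the cycle and genes that restrain it, such as Wee1 and E2f8, were thus lower side by side.

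Replication itself was represented by Ticrr, which fires origins with Topbp1, at -0.59 and by Donson, a replication fork protein, at -0.52. Tk1, the cytosolic thymidine kinase, stood at 9.28 and 9.32 in mock and 8.78 and 8.80 in AT90ES cells (-0.51). Chaf1a and Asf1b, which hand new histones to replicated DNA, were at -0.59 and -0.51. The remaining gene, Mxd3, a partner of MAX, was at -0.51. These 13 genes had a median mock level of 8.27.

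The mitosis, kinetochore and centrosome group held 10 genes between -0.65 and -0.50. Sapcd2, a regulator of spindle orientation, had a mock mean of 6.93 ± 0.10 and an AT90ES mean of 6.29 ± 0.10 (SD, n = 2 each), a difference of -0.65. Nsl1, a subunit of the MIS12 complex at the kinetochore, stood at 6.96 and 7.06 in mock and 6.43 and 6.38 in AT90ES cells (-0.60). Kif18a, a kinesin that damps chromosome movement, stood at 8.11 and 8.28 in mock and 7.74 and 7.55 in AT90ES cells (-0.55). The other 7 lay between -0.52 and -0.50, close to the threshold of the set.

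Among those 7, Prc1, the crosslinker of the spindle midzone, stood at 10.04 and 10.07 in mock and 9.59 and 9.49 in AT90ES cells. Kif20b, a kinesin of cytokinesis, and Kif2c, a microtubule depolymerase at the centromere, were each at -0.51. Bora, which helps Aurora A switch on Plk1, was at -0.52, and Cep152, a scaffold of centriole duplication, at -0.51. Cdca8, which encodes borealin of the chromosomal passenger complex, stood at 7.61 and 7.65 in mock and 7.06 and 7.19 in AT90ES cells (-0.50). Cep55, an abscission protein, stood at 8.83 and 8.79 in mock and 8.38 and 8.24 in AT90ES cells (-0.50).

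Promoter sequences from RefSeq (build GRCm38.p6), from 250 bases before to 50 bases after a start site, were held for 56 of the 71 genes, in 79 windows. They were searched on both strands for 8 short motifs. The letters TTTGAA, the core of the CHR, were found for 10 of 19 cell cycle genes (52.6%) and 8 of 37 other members (21.6%), against 13.8% of 6993 expressed genes and 20.2% of all 27025 genes with a window. Matches within 50 bases of a start site, a limit set after the positions were seen, were held by 8 of 19 cell cycle genes (42.1%), 1 of 37 other members (2.70%), 3.69% of expressed genes and 4 of 29 genes of a fixed replication list (13.8%). E2f8 counts both as a cell cycle gene and on that list, and no list of mitotic genes was set beside them. Sites are shown for 9 of the 10 cell cycle genes with a match, so that their place beside the start site can be compared. Each has 12 bases on either side of the first match, and capitals mark TTTGAA or its reverse complement TTCAAA.
Asf1b: cggagccggctaTTTGAAgggagcgcgctg
Cep55: acagccgcgggaTTCAAActcccggaagcg
E2f8: gagcgggttaatTTCAAAtcgggggctgga
Fbxo5: ttgggcaccaaaTTCAAAgattttaaaagt
Kif20b: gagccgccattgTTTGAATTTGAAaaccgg
Kif2c: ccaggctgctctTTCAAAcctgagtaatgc
Prc1: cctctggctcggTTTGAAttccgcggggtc
Skp2: caagtgtgctgaTTTGAAtaTTTGAAgtca
Wdr76: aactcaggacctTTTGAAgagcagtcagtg

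The site of E2f8 lies at chr7:48881599-48881628 on the minus strand, with its match starting 20 bases before the start site (-20). That of Prc1 lies at chr7:80294434-80294463 on the plus strand (-5) and that of Asf1b at chr8:83955668-83955697 on the plus strand (-14). That of Wdr76 lies at chr2:121508445-121508474 on the plus strand (-36), that of Fbxo5 at chr10:5805445-5805474 on the minus strand (3) and that of Kif20b at chr19:34922353-34922382 on the plus strand (7). The site of Cep55 lies at chr19:38054996-38055025 on the plus strand (24) and that of Skp2 at chr15:9155471-9155500 on the minus strand (-63). Kif2c had its match furthest out, at chr4:117178858-117178887 on the minus strand (-103). Kif20b and Skp2 each carried 2 copies of the core.

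**Figure D3:**
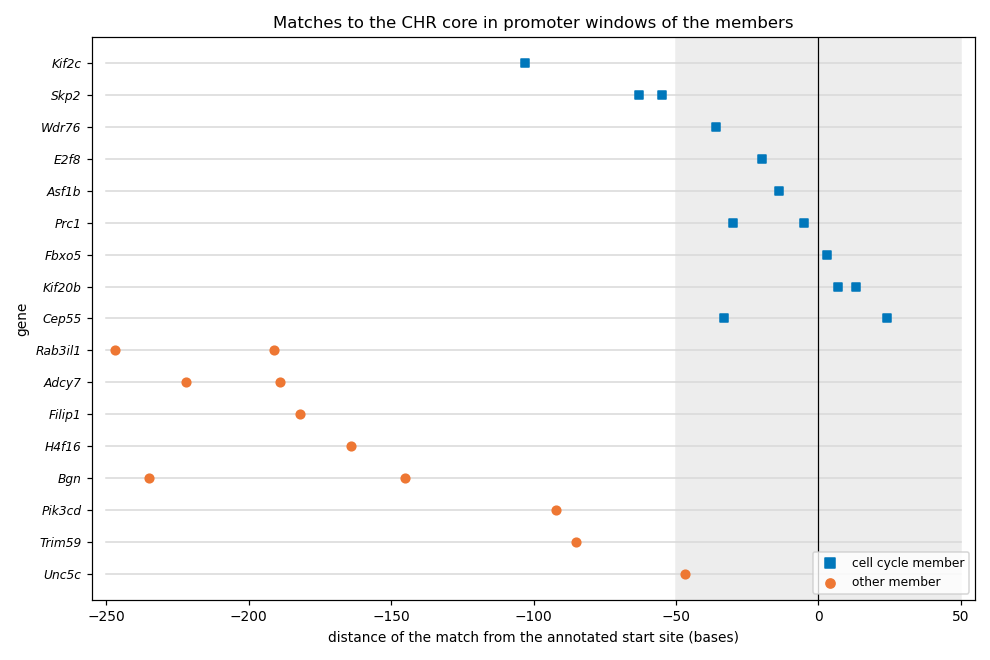
Distance of each match to the CHR core from the annotated start site (horizontal axis, bases) for 17 of the 18 members with a match (vertical axis), with cell cycle genes as blue squares and other members as orange circles. Matches of 7 cell cycle genes and of Unc5c lie in the grey band within 50 bases of the start, and the pairs drawn for Cep55, Prc1 and Rab3il1 are each 1 site measured from 2 start sites.

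The E2F-type letters TTTGGCGC were found in 2 of 19 cell cycle genes (10.5%), 0 of 37 other members and 1.27% of expressed genes, and TTTCCCGC in 0 of 56 members and 2.66% of expressed genes. The capitals below mark the first of these in Cdc25a and its reverse complement in Kif18a, shown because they are the only members with a match.
Cdc25a: ggtgaattccgTTTGGCGCcaactaggaaa
Kif18a: cccagcctctgGCGCCAAActgcgagtcgc
The site of Cdc25a lies at chr9:109875501-109875530 (-67) and that of Kif18a at chr2:109280717-109280746 (-10), each on the plus strand. CCAAT was held by 52.6% of cell cycle genes and 42.8% of expressed genes, CACGTG by 5.26% and 12.4%, GGGCGG by 94.7% and 72.4%, TATAAA by 10.5% and 7.56%, and TGACGTCA by 5.26% and 3.82%. A match is a string of letters in a window and does not show that a factor binds there.

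Lists of further cell cycle genes were set beside the members, and limma called 0 of their genes in either direction. Of 36 measured genes of origin licensing, replication and S phase, all were expressed, all 36 had negative differences, also with arrays centred on their median or on reference genes, and 33 had both AT90ES arrays below both mock arrays (91.7%, against 24.2% of expressed genes). The median of this list was -0.31, against 0.0029 over expressed genes, and 2 of its genes, E2f8 and Chaf1a, are members. Gins1, of the replicative helicase, at -0.48 and Dscc1, of a clamp loader, at -0.46 did not reach the size threshold. Neither did Clspn, a checkpoint adaptor, at -0.44 or Orc1, of the origin recognition complex, at -0.43. Of 12 expressed homology repair genes 10 were negative, with a median of -0.25, led by Rad54l at -0.46.

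The kinesin list held 27 expressed genes, 19 of them negative (18 with arrays centred on their median) and 17 with both AT90ES arrays below both mock arrays, with a median of -0.17. These are shares of 70.4% and 63.0%, against 49.4% and 24.2% of expressed genes. Shares above those of expressed genes were also found outside the cell cycle. The MAP kinase feedback list had 66.7% and 58.3%, and the ribosome assembly list 65.2% and 47.8%. Zinc finger genes went the other way, at 39.8% and 16.7%, as did chromatin regulators, with 26.1% negative. The 3 lowest kinesins were the members Kif18a, Kif20b and Kif2c. The mitotic kinesins Kif23 at -0.45, Kif14 at -0.42 and Kif22 at -0.39 followed. At the other end stood Kif16b, an endosomal motor, at 0.27, Kif3a, the motor of the cilium, at 0.18 and Kif13b at 0.16. Of 19 expressed centrosome and cilium genes, 12 were negative with a median of -0.03, and Cep152 and Cep55 were the lowest. The 0 to 4 genes that limma called in each of the fixed lists were all higher.

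The MAP kinase feedback list had a median of -0.24 over 12 expressed genes, with Myc at -0.45 and Etv1 at -0.38 but Ier3 at 0.95 and Etv5 at 0.78, and none was a member. Of 23 ribosome assembly genes 15 were negative, with a median of -0.04. Medians were 0.05 for 216 zinc finger genes (-0.00092 with arrays centred on reference genes), 0.09 for 23 chromatin regulators and 0.05 for 9 reference genes. Members made up 1 of 216 expressed zinc finger genes (Zic2), 1 of 143 solute carriers (Slc12a7) and 2 of 193 genes whose symbols begin with Fbx, Rnf, Trim, Klhl, Usp or Ube2 (Fbxo5 and Trim59), against 0.817% of all expressed genes, so these lists held members at 0.463%, 0.699% and 1.04%. The last list was drawn by symbol and does not take in the ubiquitin pathway members Otud1, Fem1a and Skp2. In all, 12 of the 71 members were on a fixed list and 59 on none.

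**Figure D4:**
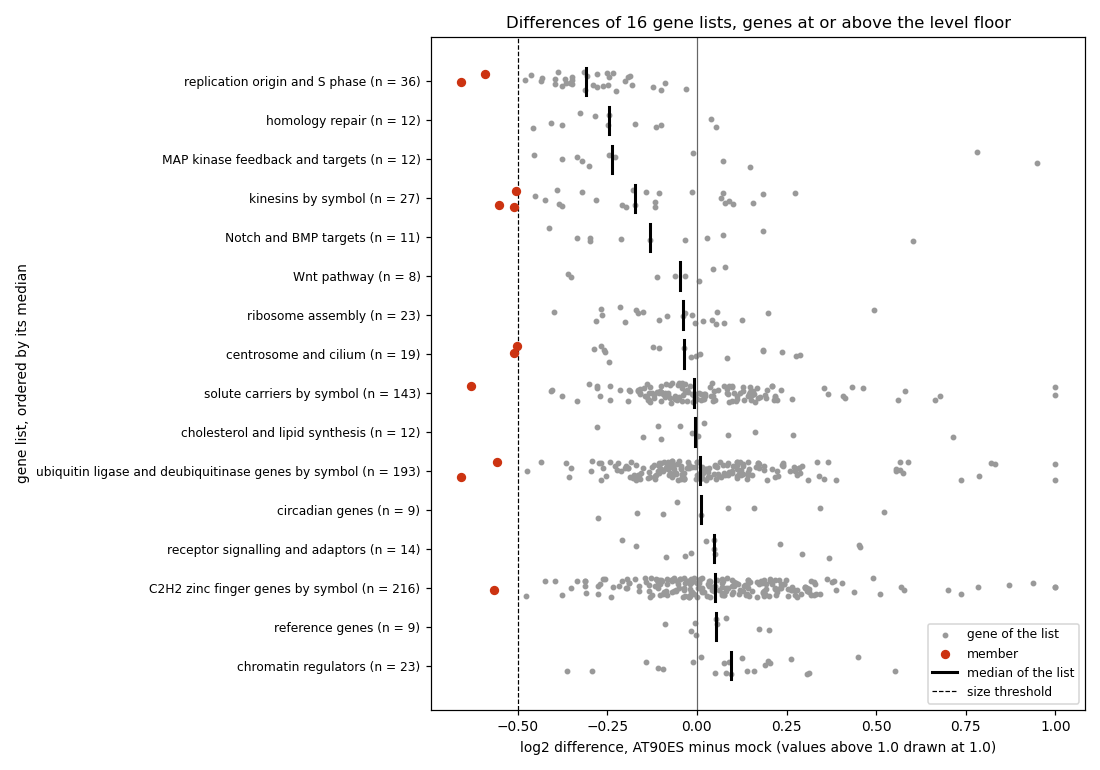
Log2 difference (horizontal axis) of the expressed genes of 16 gene lists (vertical axis, ordered by median), with members in red, other genes in grey and a black bar at each median. The replication list, with a median of -0.31, is the only list that lies wholly left of 0.

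Among signalling genes, 2 members belong to the p38 stress kinase branch, in which MAP kinase kinases activate the p38 enzymes. Map2k6, an activator of p38, stood at 6.35 and 6.67 in mock and 5.93 and 5.74 in AT90ES cells (-0.68). Mapk11, which encodes p38 beta, stood at 7.36 and 7.34 in mock and 6.83 and 6.76 in AT90ES cells (-0.56). Expressed relatives outside the set, here and below, did not meet its value conditions by construction. Among them, Map2k3, the other p38 activator, was at -0.05, Mapk14, which encodes p38 alpha, at -0.09 and Mapk12 at -0.12.

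Cyclic AMP, which carries the signal of the melanocortin receptor in pigment cells, was represented by 3 members, of which 1 makes it and the others respond to it. Adcy7, an adenylyl cyclase that makes it, stood at 7.71 and 7.68 in mock and 7.17 and 7.20 in AT90ES cells (-0.51). Prkar2b, a regulatory subunit of protein kinase A that binds it, stood at 8.61 and 8.84 in mock and 8.21 and 8.09 in AT90ES cells (-0.58). Rapgef3, the exchange factor Epac1 that it opens, stood at 7.06 and 7.11 in mock and 6.54 and 6.53 in AT90ES cells (-0.55). The other expressed cyclase, Adcy6, was at 0.22, and the subunits Prkar1a and Prkar2a were at 0.04 and -0.08.

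Relatives were then measured more widely. For 21 families or complexes with a member, at least 1 other expressed gene was measured, 44 in all. These families were chosen once the members were known and were not tested. By construction none of the 44 relatives met the conditions of the set. Of them, 30 had negative and 14 positive differences, where 49.4% of all expressed genes were negative. With arrays centred on reference genes 35 were negative, but so were 5304 of the 8689 expressed genes. All expressed relatives had negative differences in 11 of the 21 families, and 10 families had a positive relative. In some of the 11, such as connexins, just 1 relative was expressed. The 11 took in families outside the cell cycle, such as connexins and p38 kinases, as well as chromatin assembly, passenger and E2F genes. All 8 E2F genes were negative in each scaling tried, from -0.66 for E2f8 and -0.40 for E2f7 to -0.26 for E2f6. Chaf1b was at -0.35, and the passenger genes Birc5, Incenp and Aurkb were at -0.40, -0.35 and -0.25. Relatives of some other members lay near 0 or above it. Nsl1 at -0.60 had its complex partners Pmf1 and Dsn1 at -0.10 and -0.05. Mxd3 at -0.51 stood opposite Mxd4 at 0.53, Mxd1 at 0.43 and Mxi1 at 0.24, all encoding MAX partners that oppose MYC, while Myc itself was at -0.45. Unc5c, a netrin receptor, was at -0.52 and its relative Unc5b at 0.52. Pik3cd, which encodes the delta isoform of PI3 kinase, was at -0.52, with Pik3ca at 0.05 and Pik3cb at 0.07.

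**Figure D5:**
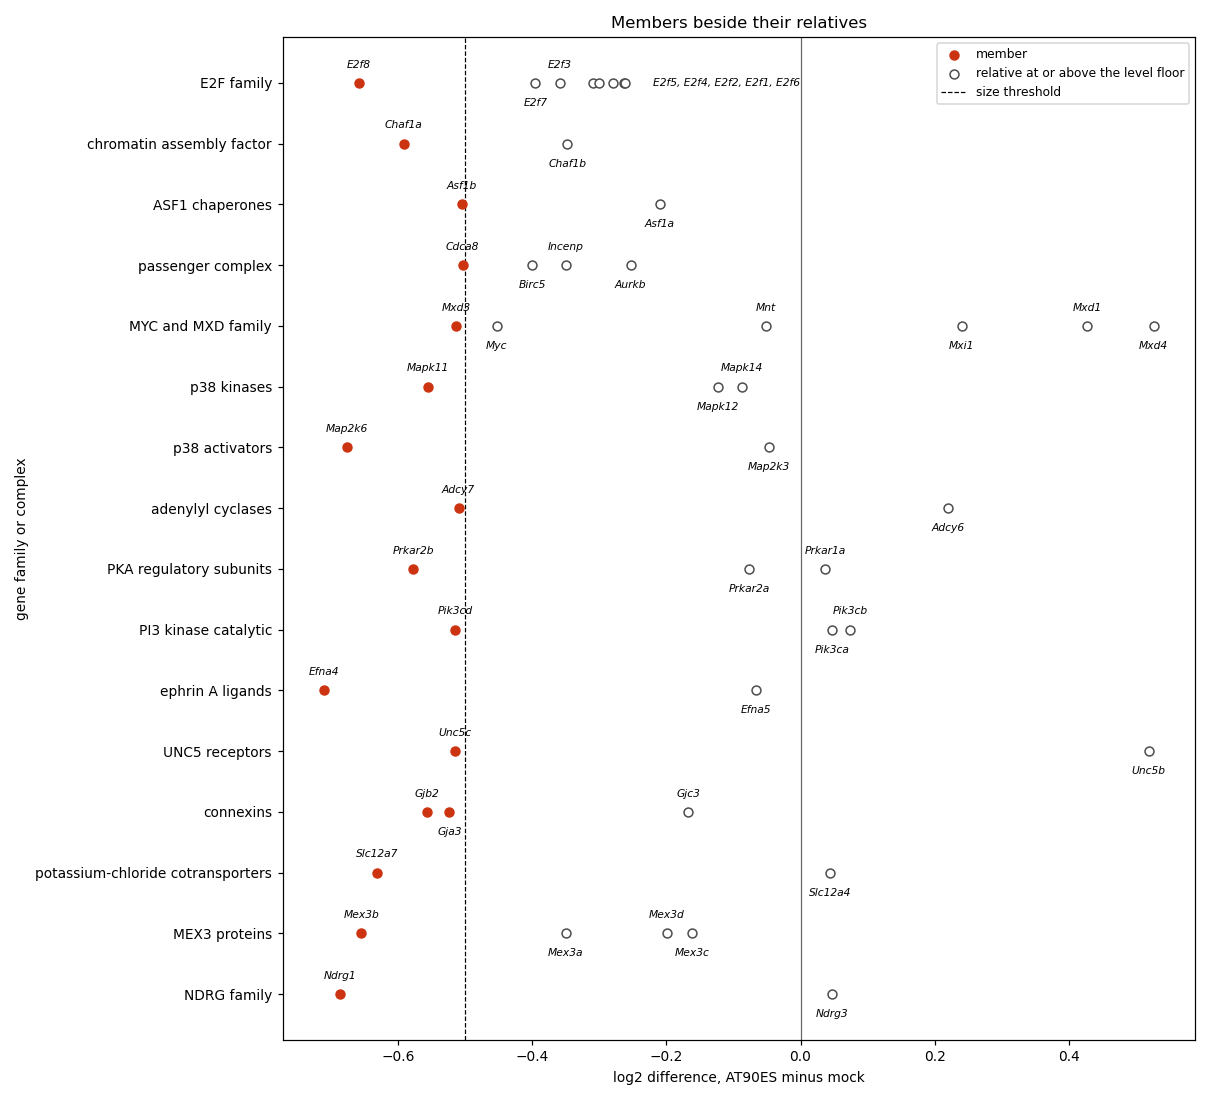
Log2 difference (horizontal axis) of members (filled red) and of their relatives at or above a mock mean of 6 (open circles) in 16 families or complexes (vertical axis). By construction no open circle meets the conditions of the set. The other E2F genes, at -0.40 to -0.26, lie between E2f8 and 0, whereas Mxd4 at 0.53 and Unc5b at 0.52 lie on the other side of 0.

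Ligands, guidance receptors and adhesion genes made up 10 members. Efna4, a membrane-bound ephrin, stood at 6.29 on each mock array and at 5.66 and 5.50 in AT90ES cells (-0.71), while Efna5 was at -0.07. Itga4, the integrin chain that binds VCAM1 and fibronectin, was tight within groups, at 8.74 and 8.75 in mock and 8.12 and 8.16 in AT90ES cells (-0.60). Angpt2, a secreted ligand of the TIE2 receptor, stood at 7.88 and 8.05 in mock and 7.49 and 7.26 in AT90ES cells (-0.59). Sema6b, a semaphorin, was at -0.55, Tspan14, a tetraspanin that escorts ADAM10, at -0.54, Megf10, an engulfment receptor, at -0.53, Pdpn, which encodes podoplanin, at -0.52 and Nrg2, a ligand of ERBB receptors, at -0.51. Nrg2 stood at 6.11 and 6.23 in mock and 5.68 and 5.65 in AT90ES cells.

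Bgn, which encodes the matrix proteoglycan biglycan, had the narrowest gap between the groups, 0.17. It stood at 7.38 and 6.60 in mock and 6.43 and 6.39 in AT90ES cells, so that mock replicate 2 lay closer to the AT90ES arrays than to mock replicate 1. Without mock replicate 1 its difference was -0.19 in place of -0.58. Some of these genes are also made by stromal or vascular cells, and markers of such cells were dim here. Just Col1a2 of 5 fibroblast markers, at 6.22, and none of 4 endothelial markers reached a mock mean of 6, and the mean over the 5 fibroblast markers was 5.14 to 5.18 on mock and 5.08 to 5.27 on AT90ES arrays. Over the 4 endothelial markers it was 4.82 to 4.97 on mock and 4.77 to 4.88 on AT90ES arrays. Of other cell types, 1 of 6 myeloid (Cd68), 0 of 4 lymphocyte and 0 of 3 keratinocyte markers reached 6. The part of such cells in the result was not tested.

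Gap junctions, channels and transporters gave 5 members. Besides Abca12, Kcnmb1, an accessory subunit of the BK potassium channel, stood at 6.05 and 5.99 in mock and 5.31 and 5.28 in AT90ES cells (-0.72). Slc12a7, a potassium-chloride cotransporter, stood at 8.32 and 8.17 in mock and 7.61 on each AT90ES array (-0.63), with its relative Slc12a4 at 0.04. The connexin genes Gjb2 and Gja3 were at -0.56 and -0.52, while Gjc3, the third connexin at or above the floor, was at -0.17. In the RefSeq gene order Gja3 and Gjb2 are neighbours with 0 protein-coding genes between them, and so are Ndrg1 and St3gal1; no other pair of members was adjacent.

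Ndrg1, a hypoxia-responsive gene, stood at 9.34 and 9.42 in mock and 8.63 and 8.76 in AT90ES cells (-0.69), and its relative Ndrg3 was at 0.05. Its neighbour St3gal1, a sialyltransferase of O-glycans, stood at 9.79 and 9.65 in mock and 9.14 and 9.15 in AT90ES cells (-0.58). Chst12, a sulfotransferase of chondroitin, stood at 6.81 and 6.48 in mock and 5.95 and 5.85 in AT90ES cells (-0.74). Other enzymes were Pomk, a kinase of the O-mannose glycans on dystroglycan, at 9.18 and 9.11 in mock and 8.62 on each AT90ES array (-0.52), Cerk, the ceramide kinase, at -0.51 and Mtap, of methionine salvage, at -0.51. Mtap stood at 10.68 on each mock array and at 10.22 and 10.13 in AT90ES cells. Sppl2b, an intramembrane protease, was at -0.51.

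Beyond Otud1, the ubiquitin genes outside the cycle were Fem1a, a receptor subunit of cullin ligases, at 7.42 and 7.48 in mock and 6.85 and 6.79 in AT90ES cells (-0.63), and Trim59, a RING finger gene, at 9.53 and 9.50 in mock and 8.99 and 8.93 in AT90ES cells (-0.56). In all 3 the groups were separated by at least 0.5.

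Regulators of development and RNA gave 5 members. Alx1, a homeodomain factor of the neural crest, the tissue that gives rise to melanocytes, stood at 7.91 and 8.40 in mock and 7.53 and 7.48 in AT90ES cells (-0.65). Mex3b, an RNA-binding protein, stood at 6.91 and 7.26 in mock and 6.68 and 6.18 in AT90ES cells (-0.66), with wide spread in each group, and Mex3a, Mex3d and Mex3c were at -0.35, -0.20 and -0.16. Zic2, a zinc finger factor, stood at 6.73 and 6.79 in mock and 6.32 and 6.08 in AT90ES cells (-0.56). Nanos1, which represses translation, stood at 6.24 and 6.25 in mock and 5.81 and 5.63 in AT90ES cells (-0.53).

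The microRNA gene Mir344d-2 stood at 6.28 and 6.24 in mock and 5.54 and 5.91 in AT90ES cells (-0.53). Its mature products are shown with the seed, bases 2 to 8, in capitals, because the 3p product has the same sequence in 3 genes of the cluster and so cannot be assigned to 1 of them.
mmu-miR-344d-3p: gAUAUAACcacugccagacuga
mmu-miR-344d-2-5p: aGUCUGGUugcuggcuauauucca
The sister genes Mir344d-1 and Mir344d-3 were dim, with mock means of 3.49 and 2.38.

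Traffic, cytoskeleton and small GTPase genes made up 9 members. Rab3il1, an exchange factor for Rab proteins, stood at 6.58 and 6.70 in mock and 5.98 and 5.82 in AT90ES cells. Tom1l2, an adaptor of endosomal sorting, stood at 9.05 and 9.09 in mock and 8.61 and 8.16 in AT90ES cells (-0.68). Phldb2, which anchors microtubules at the cell cortex, stood at 6.67 and 6.76 in mock and 5.99 and 6.21 in AT90ES cells (-0.62). The others, Ttc21b, Syde2, Mtfr2, Filip1, Sh3tc2 and Arhgap18, lay between -0.53 and -0.50. Arhgap18 stood at 7.88 and 7.81 in mock and 7.44 and 7.24 in AT90ES cells. Ttc21b works in transport within the cilium.

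The histone genes H4f16 and H2al2a are uncertain, since histone genes of a type are near-identical copies. H4f16 stood at 10.33 and 10.76 in mock and 9.91 and 9.92 in AT90ES cells (-0.63), but its dimmer probe gave a difference of 0.07 and the H4 gene H4c12 was at -0.07. H2al2a, an H2A variant gene, stood at 6.45 and 6.43 in mock and 5.61 and 6.16 in AT90ES cells (-0.55). In all, 5 members had a second probe, each of them dimmer, with a mock mean under 6. These gave -0.40 for Bgn, -0.42 for Ndrg1 and -0.38 for Rapgef3, against 0.07 for H4f16 and 0.13 for Tom1l2.

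The edge of the set is not a natural break. Just inside the size threshold lay Cdca8 at -0.504, Arhgap18 at -0.502 and Cep55 at -0.501, and just outside lay the receptor gene Gpr135 at -0.4999, C2cd2l at -0.499 and Cdca5, which encodes the cohesin regulator sororin, at -0.493. Just above the level floor lay Kcnmb1 at 6.02, Nrg2 at 6.17 and Nanos1 at 6.25, and just below it B3galt5 at 5.88, Dpep2 at 5.81 and Slc14a1 at 5.75. With a size of -0.4 the conditions took 191 genes, and with -0.6 they took 24. The number was 45 with arrays centred on their median, all of them members, and 114 with arrays centred on reference genes, all 71 members included. Without mock replicate 1 it was 151, with 62 of the 71 members, and without AT90ES replicate 1 it was 139, with 60 of them. Without mock replicate 2 it was 89, with 48 of the members, and without AT90ES replicate 2 it was 80, with 46 of them. In each of the 4 sets that left out an array 25 members were found, and 24 of these also met the conditions in both other scalings and with all probes of a gene averaged. Of those 24, 9 were cell cycle genes: Esco2, Wee1, Wdr76, E2f8, Fbxo5, Ticrr, Skp2, Sapcd2 and Nsl1. The same size and overlap conditions in the other direction took 254 expressed genes as higher, against 77 as lower.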

How the data were processed

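RNA from 2 mock and 2 AT90ES transfected cultures of B16-OVA cells was hybridised to Affymetrix gene arrays. The authors deposited log2 levels for 41345 probes, and the submitters' processing notes name RMA as the tool; its version and settings are not given in the sources used here. RMA equalises the arrays' distributions, so a change shared by all genes is removed and each difference is relative to the other genes. Precision is limited by the number of arrays, and p-values measure the spread between these arrays. Probes were named from the platform's annotation: 23521 had 1 gene symbol and 1814 had several, and the latter named no gene. The brightest probe stood for a gene, and all 71 genes matched a RefSeq gene ID under the same symbol. Group and replicate came from the sample titles.

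All 4 arrays entered limma 3.58.1 (R 4.3.3; lmFit, eBayes, no covariate), with two-sided p-values adjusted over 22180 genes; the script was tested on simulated data. An exact permutation test of 2 against 2 arrays cannot go below p = 0.333. The members, gene lists and tests were chosen with earlier results of these data known. Function groups and relatives were assigned after the members were known. Values by array are given for the 16 members with the largest difference, for up to 3 members of each of 12 function groups, and for genes at the thresholds; other genes named were chosen after their values were seen. Alternatives were another scaling, level floor, size, probe choice, intensity trend, replicate block and each array left out. Promoter and microRNA sequences are RefSeq's; 15 members had no promoter window and were not analysed there. The promoter site of 1 further member and 1 gene list are not reported here.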

Additional observations from a re-analysis of the deposited data

How the results depend on the processing

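The genes limma called lower numbered 4 and those called higher 172 with arrays centred on their median, 54 and 200 with dim genes left out, and 162 and 431 with an intensity trend; with reference gene centring or averaged probes the lower count stayed at 0. Without each array in turn 0 were lower and 32 to 47 higher, with the remaining array of that group taken to share the other group's spread. With the replicate block 0 were lower and 85 higher. Same-numbered arrays deviated in opposite directions (correlation -0.222 across genes), and with the crossed replicate block, chosen after seeing the data, 0 were lower and 59 higher; the labels do not say that a number marks a shared culture, so neither block is used elsewhere. The genes meeting the conditions numbered 191 and 24 with sizes of -0.4 and -0.6, 45 and 114 with centring on the median and on reference genes, and 80 to 151 without an array. For 40 members named by the rule in the methods, all 360 alternative differences were negative, from -1.07 to -0.28. Their sign was partly fixed in advance. Without an array it follows from both AT90ES arrays lying below both mock arrays, and the replicate blocks leave a difference unchanged. Over all 71 members the 284 differences without an array ran from -1.07 to -0.19, the last being Bgn. The limits are 2 arrays a group and an unknown mock treatment.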

Other observations

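Probes annotated to more than 1 gene stood outside the comparison. Of 627 such probes with a mock mean of at least 6, 3 met the same conditions. A probe annotated to Ccne2, the cyclin E2 gene of S phase entry, and Ints8, an Integrator subunit, stood at 8.22 and 8.26 in mock and 7.64 and 7.58 in AT90ES cells, a difference of -0.63. A probe annotated to the histone genes H2bc8, H2bc6 and H2bc4 stood at 6.28 and 6.78 in mock and 5.85 and 5.76 in AT90ES cells, a difference of -0.73. The third, annotated to Sinhcaf, of the SIN3 histone deacetylase complex, and a gene model, was at -0.56. Which of the annotated genes gave the signal cannot be told apart. Of 2945 probes with no symbol at that level, 58 met the conditions.

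Below the level floor, 163 further genes with an approved name met the other conditions. Of the 22180 genes, 8689 reached the floor, so the rest lay below it. Members made up 71 of those 8689 (0.817%). On the 4 arrays the 95th percentile of olfactory receptor genes lay between 4.85 and 5.07.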
